A study of Mus musculus with 6 samples.

Results

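The 10 genes described here are the nuclear effectors of the Hippo pathway and a small set of their best known targets, namely the coactivators Yap1 and Wwtr1, the DNA-binding partners Tead1, Tead2, Tead3 and Tead4, and the target genes Ctgf, Cyr61, Ankrd1 and Amotl2. They were taken by symbol from count tables of 23420 genes, in which all 10 were found. RNA-seq was performed on lacrimal gland epithelium of mouse embryos at E14.5, the stage at which the gland is a bud, in 3 Control and 3 Pea3 TKO libraries. The tissue was isolated by laser capture microscopy from frozen embryos. Control embryos carried Le-Cre, and their titles call them WT. Pea3 TKO embryos had Le-cre together with the alleles Pea3-/-, and in addition Ermfl/fl and Er81fl/fl, and both groups were on a mixed background. Cre was thus present in every embryo. In the mutants both Pea3 (Etv4) alleles were null in the whole embryo, although some Etv4 reads remained, as given below. Erm (Etv5) and Er81 (Etv1), the other members of this FGF-induced ETS family, were deleted only where Le-Cre acts. That is the ocular surface ectoderm and its derivatives. The labels do not say whether each library came from 1 embryo, so the p-values measure the spread between libraries, which may be partly technical.

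In the Hippo pathway the kinases Stk3 and Stk4 (Mst) activate Lats1 and Lats2, which phosphorylate Yap1 and Wwtr1 (TAZ) and keep them out of the nucleus. When the kinases are inactive, Yap1 and Wwtr1 enter the nucleus and bind TEAD factors, since they have no DNA-binding domain of their own. In epithelia the pathway responds to cell density, polarity and tension, and it is known for its part in growth and in the choice between progenitor and differentiated states. Because this control acts on the proteins, the transcript levels below do not measure the activity of Yap1 or Wwtr1. In these bulk samples, fewer cells of a type and less RNA per cell cannot be told apart.

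The TEAD factors recognize the letters GGAATG, or CATTCC on the other strand. RefSeq promoter windows on GRCm38.p6, which run from 250 bases before to 50 bases after a transcript start, existed in the table used for 7 of the 10 members, and the letters were present in 6 of these 7 and absent from the windows of Tead2. In comparison, 16.6% of the 27025 genes with a window held them in at least 1 window. Ctgf, Tead1 and Tead4 had no window. The deleted factors belong to the ETS class, and 1 strict 7-letter form of its sites, CCGGAAG or its reverse CTTCCGG, was searched. This form was found in none of the 7 members and in 9.93% of all genes with a window. Shorter or other forms were not searched. The letters GGAAG within this form occur in the printed Cyr61 and Amotl2 windows, so the members cannot be said to lack ETS sites. A match is a description of the letters only. The windows of the target genes Cyr61, Amotl2 and Ankrd1 are printed to show where the TEAD letters lie before these genes, and the Tead3 window because Tead3 was the TEAD gene that rose. Each is given 5′ to 3′ on the strand of the gene, with the TEAD letters in capitals.
Cyr61, chr3:145649936-145650235, minus strand: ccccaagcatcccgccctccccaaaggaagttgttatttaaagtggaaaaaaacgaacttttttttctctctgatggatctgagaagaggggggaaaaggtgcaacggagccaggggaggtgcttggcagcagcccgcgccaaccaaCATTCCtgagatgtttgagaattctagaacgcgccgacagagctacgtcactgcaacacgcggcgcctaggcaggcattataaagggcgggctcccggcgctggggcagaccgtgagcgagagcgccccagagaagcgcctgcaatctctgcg
Amotl2, chr9:102717554-102717853, plus strand: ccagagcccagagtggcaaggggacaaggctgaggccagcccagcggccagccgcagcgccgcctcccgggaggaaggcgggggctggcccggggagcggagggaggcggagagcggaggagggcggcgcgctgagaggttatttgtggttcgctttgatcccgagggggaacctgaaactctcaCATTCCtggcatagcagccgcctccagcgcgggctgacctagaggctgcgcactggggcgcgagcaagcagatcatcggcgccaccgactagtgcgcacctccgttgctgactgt
Ankrd1, chr19:36119795-36120094, minus strand: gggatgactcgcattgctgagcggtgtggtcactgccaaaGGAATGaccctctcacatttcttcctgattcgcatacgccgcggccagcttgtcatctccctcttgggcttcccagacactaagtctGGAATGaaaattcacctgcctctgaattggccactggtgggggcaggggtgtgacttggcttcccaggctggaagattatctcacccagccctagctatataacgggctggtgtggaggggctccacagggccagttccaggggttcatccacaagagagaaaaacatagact
Tead3, chr17:28350756-28351055, minus strand: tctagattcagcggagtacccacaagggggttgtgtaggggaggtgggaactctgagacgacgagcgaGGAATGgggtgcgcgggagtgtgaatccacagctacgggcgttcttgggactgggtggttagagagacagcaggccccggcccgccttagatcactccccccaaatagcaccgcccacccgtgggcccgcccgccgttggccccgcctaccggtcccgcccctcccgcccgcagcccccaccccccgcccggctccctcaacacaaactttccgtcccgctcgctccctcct
The capitals began 103 bases before the start in Cyr61, 65 bases before it in Amotl2, 210 and 123 bases before it in Ankrd1, and 182 bases before it in Tead3. The Tead3 gene has 2 further windows, of which 1 held the letters and 1 did not.

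Ctgf fell and Tead3 rose in Pea3 TKO, while the transcripts of both coactivators and of the most abundant TEAD factor, Tead2, did not pass the test. Of the 10 members, 9 had enough counts to be tested, 1 was called higher (Tead3), 1 was called lower (Ctgf) and 7 were not called at an adjusted p under 0.05 in edgeR's quasi-likelihood test with Benjamini-Hochberg adjustment over all 13087 genes tested. Over those genes, 25.0% were called in either direction, 13.6% higher and 11.3% lower, and the 2 calls among 9 tested members are close to this background. In 3 of the 9 tested members the values of the groups did not overlap, against 43.9% of all genes tested. With 3 libraries against 3, an exact permutation test of a single gene could not give a p below 0.10.

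**Figure D1:**
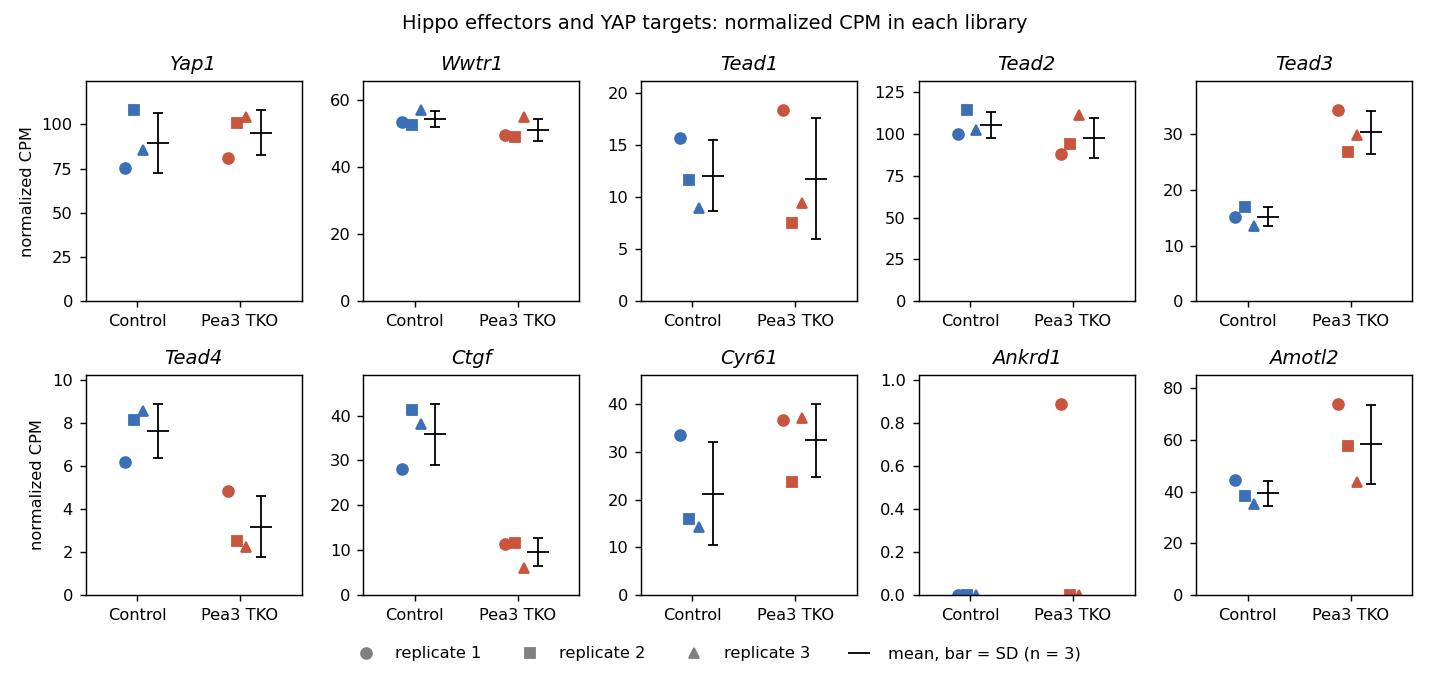
Normalized counts per 1000000 counts (CPM, vertical axes, each starting at 0) of the 10 members in each of the 3 Control (blue) and 3 Pea3 TKO (red) libraries, with the mean and SD beside them except for Ankrd1. The groups are separate for Tead3 (13.5 to 16.9 against 26.7 to 34.4), Ctgf (28.1 to 41.3 against 6.11 to 11.7) and Tead4, and overlap for the other tested members.

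The coactivators Yap1 and Wwtr1 were well expressed in both groups. Yap1, the main effector that Lats kinases restrain, lies at chr9:7931999-8004596 on the minus strand of GRCm38. Yap1 was at 75.2, 108 and 85.4 CPM in Control 1 to 3 and at 80.7, 101 and 104 CPM in Pea3 TKO 1 to 3. The groups overlapped, with the lowest and the highest value of all 6 libraries both in Control. The means were 89.6 ± 16.9 and 95.2 ± 12.7 CPM (SD, n = 3), a log2 fold change of 0.09 with a 95% interval from -0.28 to 0.46 (edgeR adjusted p = 0.737).

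Wwtr1, which encodes the paralog TAZ, lies at chr3:57455649-57575910 on the minus strand. Wwtr1 stood at 53.6, 52.5 and 57.1 CPM in the Control libraries and at 49.5, 49.0 and 54.9 CPM in the Pea3 TKO libraries. All 6 values fell in a narrow band in which the groups overlapped, since Pea3 TKO 3 was above Control 1 and Control 2. The log2 fold change was -0.09, with a 95% interval from -0.38 to 0.21 (edgeR adjusted p = 0.662). Per kb of exonic length, the ratio of Wwtr1 to Yap1 was 1.20 ± 0.233 in Control and 1.05 ± 0.126 in Pea3 TKO (SD, n = 3), with libraries from 0.940 to 1.38 and from 0.941 to 1.19. The ratio overlapped between groups, and which of the coactivators was higher depended on the length used, since dividing by the longest transcript in place of all exons gave ratios of 0.699 and 0.609.

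Among the DNA-binding partners, Tead3 rose, Tead4 was lower without passing the threshold, and Tead1 and Tead2 did not pass it with groups that overlapped. Tead2, a factor prominent in early embryos and neural tissue, lies at chr7:45215753-45233644 on the plus strand. The Tead2 levels were 99.6, 114 and 102 CPM in Control and 88.0, 93.6 and 111 CPM in Pea3 TKO. Pea3 TKO 3 was within the Control range and the other Pea3 TKO libraries were below it. The log2 fold change of Tead2 was -0.11, with a 95% interval from -0.41 to 0.18 (edgeR adjusted p = 0.577).

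Tead3, a TEAD factor known from placenta, lies at chr17:28331671-28350817 on the minus strand. Tead3 was at 15.2, 16.9 and 13.5 CPM in Control and at 34.4, 26.7 and 29.9 CPM in Pea3 TKO. Every Pea3 TKO library was above every Control library. The means of 15.2 ± 1.75 and 30.3 ± 3.84 CPM (SD, n = 3) corresponded to a log2 fold change of 1.0 ± 0.20 (SE; edgeR adjusted p = 0.00659). The call held without any 1 library, with log2 fold changes from 0.90 to 1.08. With the Y-linked level of each library as a covariate, the log2 fold change was 0.98 and the adjusted p 0.0770, which is above the threshold.

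Tead4, a factor needed for the trophectoderm and active in muscle, lies at chr6:128224288-128300823 on the minus strand. Tead4 stood at 6.20, 8.16 and 8.58 CPM in Control and at 4.83, 2.52 and 2.23 CPM in Pea3 TKO, from 110 to 132 reads and from 36 to 76 reads a library. The groups did not overlap, and Pea3 TKO 1 lay nearest to Control. The log2 fold change was -1.26, with a 95% interval from -2.22 to -0.30 that did not include 0, but its adjusted p was 0.0586 in edgeR's quasi-likelihood test. This call was close to the threshold. DESeq2 gave an adjusted p of 0.0281 for the same counts. Without Pea3 TKO 1, the mutant library nearest to Control, edgeR gave a log2 fold change of -1.68 with an adjusted p of 0.0300. The other edgeR fits without 1 library gave adjusted p from 0.0571 to 0.162. With the Y-linked level as a covariate, the edgeR adjusted p was 0.164.

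Tead1, the most widely expressed TEAD gene in adult tissues, lies at chr7:112679318-112906807 on the plus strand. Tead1 was at 15.6, 11.6 and 8.91 CPM in Control and at 18.4, 7.48 and 9.40 CPM in Pea3 TKO. Replicate 1 was the highest in both groups, and Pea3 TKO spanned the whole Control range. The log2 fold change was -0.04, and its 95% interval from -0.87 to 0.80 was wide (edgeR adjusted p = 0.958), so that changes within that range could not be told from none.

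Expressed as shares of the summed TEAD transcript level per kb of exonic length, the make-up of the family shifted while its sum stayed similar. The summed level was 27.3 ± 1.94 CPM per kb in Control and 26.6 ± 2.13 in Pea3 TKO (SD, n = 3), and the ranges overlapped. Tead2 made up 80.2%, 80.9% and 80.9% of it in Control and 70.2%, 78.9% and 80.1% in Pea3 TKO. It was the main TEAD transcript in each of the 6 libraries. Tead3 held 8.71%, 8.55% and 7.58% in Control and 19.5%, 16.1% and 15.4% in Pea3 TKO. The Tead4 share was 6.65%, 7.69% and 9.02% in Control and 5.12%, 2.82% and 2.14% in Pea3 TKO. Thus the Tead3 share was 8.71 percentage points higher and the Tead4 share 4.42 percentage points lower in the mutant mean (-4.42 points), and neither share overlapped between groups. Tead1 held from 2.22% to 5.17% with overlap. No test was made on shares, and the Tead3 and Tead4 shares restate the levels of these genes given above.

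**Figure D2:**
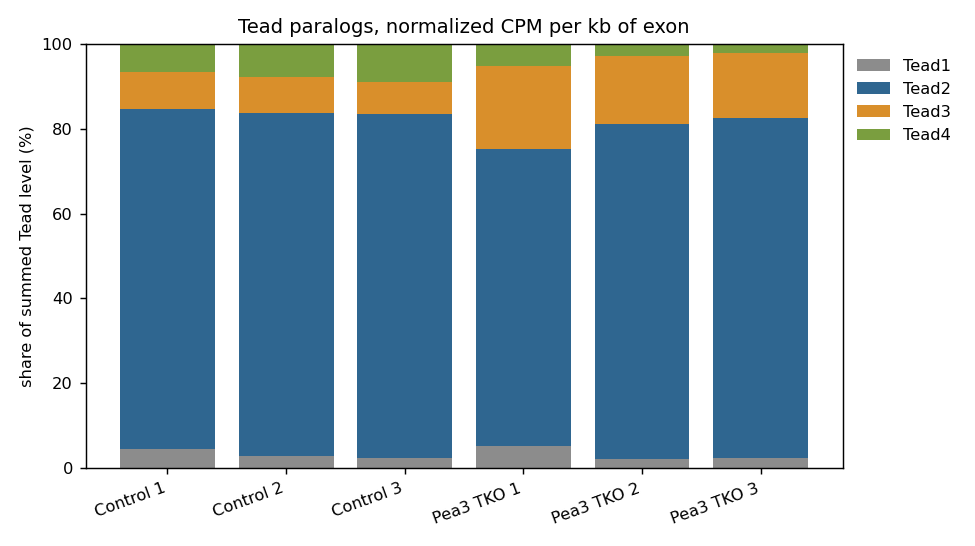
Share of the summed normalized CPM per kb of exonic length (vertical axis, percent) held by each of the 4 TEAD genes in each library, as stacked bars. Tead2 is the largest segment throughout (70.2% to 80.9%), and the Tead3 segment is larger in the 3 Pea3 TKO libraries (15.4% to 19.5%) than in the 3 Control libraries (7.58% to 8.71%).

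The 4 target genes did not move together. Ctgf (Ccn2), which encodes a secreted matricellular protein of the CCN family and is the target most used as a readout of Yap1, fell. Cyr61 (Ccn1), its close relative and fellow readout, had a higher mean in Pea3 TKO without passing the test. Amotl2, an angiomotin that binds Yap1 and acts as a feedback inhibitor, also had a higher mean without passing, and Ankrd1, a cardiac ankyrin repeat protein, was at or near 0.

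Ctgf lies at chr10:24595442-24598683 on the plus strand. Ctgf was at 28.1, 41.3 and 38.0 CPM in Control and at 11.3, 11.7 and 6.11 CPM in Pea3 TKO, from 498 to 662 reads and from 104 to 178 reads a library. Each Pea3 TKO library was below each Control library. The means of 35.8 ± 6.87 and 9.70 ± 3.11 CPM (SD, n = 3) corresponded to a 3.69-fold higher level in Control, with a log2 fold change of -1.89 ± 0.28 (SE) and a 95% interval from -2.52 to -1.25 (edgeR adjusted p = 0.00163). The call held in all 13 alternative fits, in which the log2 fold change ran from -2.56 to -1.64 and the highest adjusted p was 0.0106. The annotation places an antisense gene, Gm15270, over 665 bases of Ctgf. It has no row under that name in the count tables, and since the strand setting of the counting was not given in the sources used here, its reads could not be told apart from those of Ctgf.

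Cyr61 lies at chr3:145646976-145649981 on the minus strand. The Cyr61 levels were 33.6, 15.8 and 14.2 CPM in Control and 36.7, 23.6 and 37.0 CPM in Pea3 TKO. Control 1 stood with the Pea3 TKO libraries, and the other Control libraries were below all of them. The log2 fold change was 0.61 ± 0.33 (SE), with a 95% interval from -0.13 to 1.36 (edgeR adjusted p = 0.210). This outcome depended on Control 1, since without it the log2 fold change was 1.11 and the edgeR adjusted p 0.0117. The other fits without 1 library gave log2 fold changes from 0.39 to 0.80, with edgeR adjusted p from 0.157 to 0.488. Control 1 also had the highest summed level of surface epithelium markers among the Control libraries, 1590 CPM against 610 and 551, and the part of this in the Cyr61 values was not tested.

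Amotl2 lies at chr9:102716672-102733418 on the plus strand. Amotl2 was at 44.6, 38.3 and 35.2 CPM in Control and at 74.0, 57.4 and 43.5 CPM in Pea3 TKO. Pea3 TKO 3 was below Control 1, and the other Pea3 TKO libraries were above all Control libraries. The log2 fold change was 0.57 ± 0.20 (SE; edgeR adjusted p = 0.0669). Without Pea3 TKO 3 it was 0.74 with an adjusted p of 0.0226, and DESeq2 called Amotl2 with all 6 libraries at an adjusted p of 0.0417. The other edgeR fits without 1 library gave adjusted p from 0.0536 to 0.225. With the Y-linked level as a covariate the log2 fold change was 0.16 and the adjusted p 0.762.

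Ankrd1 lies at chr19:36111961-36120099 on the minus strand. It had 14 reads in Pea3 TKO 1, or 0.889 CPM, and 0 reads in the other 5 libraries. A count of 0 allows up to 3 reads, which is 0.169 to 0.210 CPM at the depth of these libraries. Ankrd1 did not pass the filter on low counts and was not tested, although its promoter window held the TEAD letters 2 times.

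**Figure D3:**
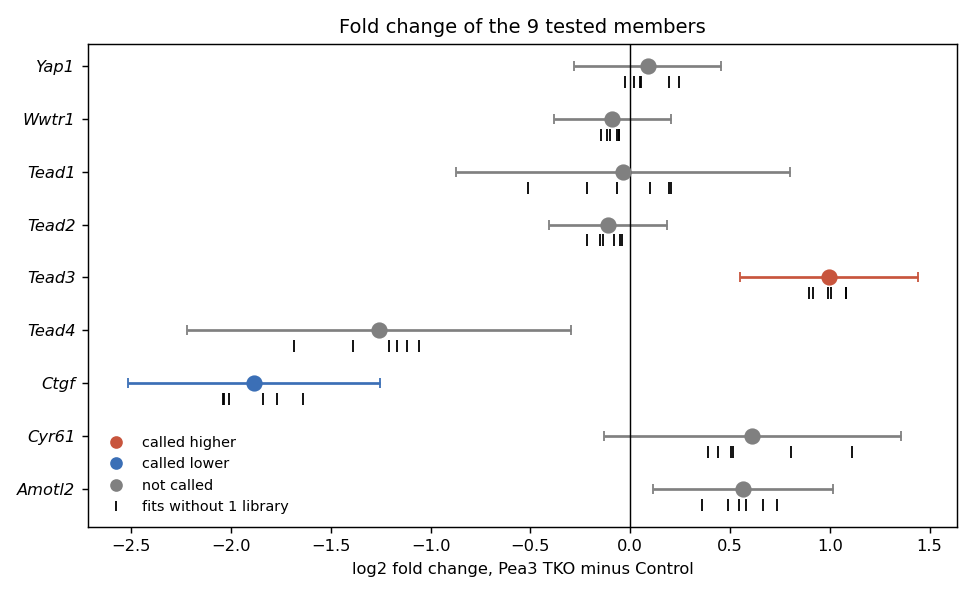
Log2 fold change, Pea3 TKO minus Control (horizontal axis), of the 9 tested members with the 95% interval as a bar, coloured by call, and black ticks for the fits that leave out 1 library each. Ctgf (-1.89) and Tead3 (1.0) were called. The ticks of Tead1, Tead4 and Cyr61 are widely spread, and the intervals of Yap1, Wwtr1, Tead1, Tead2 and Cyr61 include 0.

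The mean of Ctgf was lower in Pea3 TKO and that of Cyr61 was higher, the latter without passing the test. The ratio of Ctgf to Cyr61 per kb of exonic length was therefore also computed, after their values had been seen and without a test. It was 0.590, 1.84 and 1.89 in Control and 0.217, 0.349 and 0.116 in Pea3 TKO. Control 1 was again the Control library nearest to the mutants, and the groups did not overlap. The ratio in part restates the Ctgf levels given above.

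Between genes, levels were compared as CPM per kb of exonic length. In Control the order of the means was Tead2 at 22.0 ± 1.63, Ctgf at 12.5 ± 2.40, Wwtr1 at 11.4 ± 0.501, Cyr61 at 10.5 ± 5.33, Yap1 at 9.68 ± 1.83, Amotl2 at 6.26 ± 0.768, Tead3 at 2.26 ± 0.260, Tead4 at 2.13 ± 0.353 and Tead1 at 0.887 ± 0.249 (SD, n = 3). Ctgf, Wwtr1, Cyr61 and Yap1 overlapped one another, as did Cyr61 and Amotl2, and Tead3 and Tead4, whereas Tead2 stood above the rest and Tead1 below. In Pea3 TKO, Ctgf had moved from 2nd place to 7th, at 3.39 ± 1.09 CPM per kb, where it overlapped Tead3 at 4.52 ± 0.572. Cyr61 came after Tead2 with 16.1 ± 3.78, and Tead4 at 0.887 ± 0.395 overlapped Tead1 at 0.865 ± 0.428.

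The genes whose log2(CPM + 1) followed Ctgf most closely over the 6 libraries were Slc39a7 (Pearson r = 0.997), Cacnb3 (0.992) and Hip1 (0.992), and each of them was also called lower. For Yap1 they were Ccdc177 (r = 0.988), Pkia (0.983) and Lclat1 (0.974), none of which was called. These are the highest values among 13087 genes over 6 libraries that share 1 group difference, and they are given as a description.

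Upstream of the effectors, the Hippo kinase cassette and its regulators held calls in both directions. All 26 listed genes were tested, of which 2 rose, 2 fell and 22 were not called, against 13.6% higher and 11.3% lower over all genes tested, and the median log2 fold change was -0.11 against 0.01. The kinases Stk3, Stk4, Lats1 and Lats2 and the adaptor Sav1 were not called, with log2 fold changes from -0.44 (Sav1) to -0.05 (Lats1), and neither was the tumour suppressor Nf2 (-0.07).

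Wwc2, a KIBRA-family scaffold that promotes Lats activity, was at 43.7, 33.2 and 45.3 CPM in Control and at 21.0, 24.4 and 19.4 CPM in Pea3 TKO. It fell without overlap, with a log2 fold change of -0.91 ± 0.19 (SE; edgeR adjusted p = 0.00778). Amot, an X-linked angiomotin related to Amotl2, was at 5.98, 3.80 and 2.67 CPM in Control and at 15.0, 9.16 and 16.4 CPM in Pea3 TKO, and rose by a log2 fold change of 1.70 ± 0.39 (SE; edgeR adjusted p = 0.0122). Both calls held without any 1 library. With the Y-linked level as a covariate, the Amot call held (edgeR adjusted p = 0.0496). There the Wwc2 log2 fold change was -1.06 with an edgeR adjusted p of 0.0684, which is above the threshold.

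Taok3, a kinase of the TAO family that can act on Stk3 and Stk4, rose with a log2 fold change of 2.04 ± 0.58 (SE; edgeR adjusted p = 0.0299) from a low level of 0.975 to 5.52 CPM in Control. Rassf1, an adaptor that binds the Mst kinases, fell with a log2 fold change of -0.64 ± 0.20 (SE; edgeR adjusted p = 0.0401). The Taok3 call was lost in 4 of the 6 fits without 1 library and the Rassf1 call in 5 of 6, with adjusted p up to 0.119 and 0.130.

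The Vestigial-like proteins compete with Yap1 and Wwtr1 for TEAD factors or bind beside them. Of the 4 genes, 3 were tested, of which 2 rose and 1 was not called, against 13.6% higher over all genes tested. The median log2 fold change was 2.12 against 0.01, and it is the value of Vgll1, the gene that was not called. Vgll4, a known inhibitor of the TEAD and Yap1 complex, was at 82.9, 85.5 and 76.1 CPM in Control and at 128, 106 and 108 CPM in Pea3 TKO. All mutant values were above all Control values, with a log2 fold change of 0.49 ± 0.13 (SE; edgeR adjusted p = 0.0208). Vgll3 rose from 2.93, 1.25 and 0.260 CPM to 12.3, 5.38 and 7.46 CPM, with a log2 fold change of 2.48 ± 0.72 (SE; edgeR adjusted p = 0.0314). The Vgll4 call was lost in 3 of the 6 fits without 1 library and that of Vgll3 in 5 of 6, with adjusted p up to 0.0855 and 0.120. Vgll1 had 1.92 CPM in Control 1 and 0 in the other Control libraries, against 4.19, 2.80 and 1.59 CPM in Pea3 TKO (edgeR adjusted p = 0.276), and Vgll2 was not tested. Without Control 1, the only Control library with Vgll1 reads, Vgll1 was called higher (edgeR adjusted p = 0.00469). That fit compared Pea3 TKO with Control libraries at 0, so it adds no support. The other fits without 1 library gave edgeR adjusted p from 0.291 to 0.499.

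A list of 18 further targets of Yap1, Wwtr1 and TEAD was mixed in direction. Of 17 tested, 7 rose, 2 fell and 8 were not called, against 13.6% higher and 11.3% lower over all genes tested, and the median log2 fold change was 0.63 against 0.01. Nt5e, the ectonucleotidase CD73, was at 5.02, 1.99 and 4.42 CPM in Control and at 73.9, 30.2 and 40.2 CPM in Pea3 TKO. It rose without overlap by a log2 fold change of 3.65 ± 0.42 (SE; edgeR adjusted p = 0.000454). Igfbp3, a binding protein for insulin-like growth factors, was at 4.45, 3.37 and 3.45 CPM in Control and at 16.4, 47.1 and 30.0 CPM in Pea3 TKO, and rose by 3.05 ± 0.38 on the log2 scale (SE; edgeR adjusted p = 0.000670).

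In the other direction, Rbms3, an RNA-binding protein, was at 96.7, 104 and 108 CPM in Control and at 57.5, 62.4 and 62.0 CPM in Pea3 TKO. Like Ctgf it fell without overlap, with a log2 fold change of -0.76 ± 0.12 (SE; edgeR adjusted p = 0.00207). With the Y-linked level as a covariate, the Rbms3 log2 fold change was -0.74, but the call was lost (edgeR adjusted p = 0.0506). Myof, a membrane repair protein, rose by a log2 fold change of 1.42 ± 0.36 (SE; edgeR adjusted p = 0.0196), from 3.99 to 7.80 CPM in Control to between 10.6 and 21.3 CPM in Pea3 TKO. The remaining calls were F3, Crim1, Gadd45a and Ccdc80, which rose, and Asap1, which fell, with edgeR adjusted p from 0.0225 to 0.0401. Nt5e, Igfbp3 and Rbms3 kept their calls without any 1 library, and the other 6 did not. The number called higher ran from 2 to 7 over these fits, with 2 without Pea3 TKO 2, 3 without Control 2, Control 3 or Pea3 TKO 1, and 5 without Pea3 TKO 3.

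Other CCN family members were low. Nov (Ccn3) was at 0.0564, 0.125 and 1.37 CPM in Control and at 2.98, 5.87 and 2.70 CPM in Pea3 TKO (edgeR adjusted p = 0.0643). Wisp1 (Ccn4) was at 1.76 to 3.99 CPM in Control and 5.24 to 6.52 CPM in Pea3 TKO (edgeR adjusted p = 0.126). For both genes all mutant values were above all Control values without a call, and Wisp2 was not tested. Nov was called higher by DESeq2 (adjusted p = 0.0160) and by edgeR without Control 3, its highest Control library (log2 fold change 5.31, adjusted p = 0.00992). The other edgeR fits without 1 library gave adjusted p from 0.0893 to 0.205. With the Y-linked level as a covariate, the edgeR adjusted p was 0.338.

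Genes of the actin cytoskeleton and targets of serum response factor respond, like Yap1 targets, to cytoskeletal tension. Of 9 tested out of 10, 3 rose, 1 fell and 5 were not called, against 13.6% higher and 11.3% lower over all genes tested, with a median log2 fold change of 0.43 against 0.01. Acta2, smooth muscle actin, was at 6.37, 6.98 and 3.19 CPM in Control and at 58.7, 36.6 and 35.9 CPM in Pea3 TKO, and rose by a log2 fold change of 2.98 ± 0.33 (SE; edgeR adjusted p = 0.000387). Tagln, an actin-binding protein of smooth muscle, rose by 2.63 ± 0.36 (SE; edgeR adjusted p = 0.000999) and Tpm1, a tropomyosin, by 0.93 ± 0.14 on the log2 scale (SE; edgeR adjusted p = 0.00158). Srf itself, the transcription factor, was at 66.6, 68.4 and 75.2 CPM in Control and at 47.1, 45.7 and 50.1 CPM in Pea3 TKO, and fell with a log2 fold change of -0.56 ± 0.13 (SE; edgeR adjusted p = 0.0131). The Srf call was lost without Control 3 or Pea3 TKO 2, with adjusted p up to 0.0568, and the other 3 calls held without any 1 library.

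**Figure D4:**
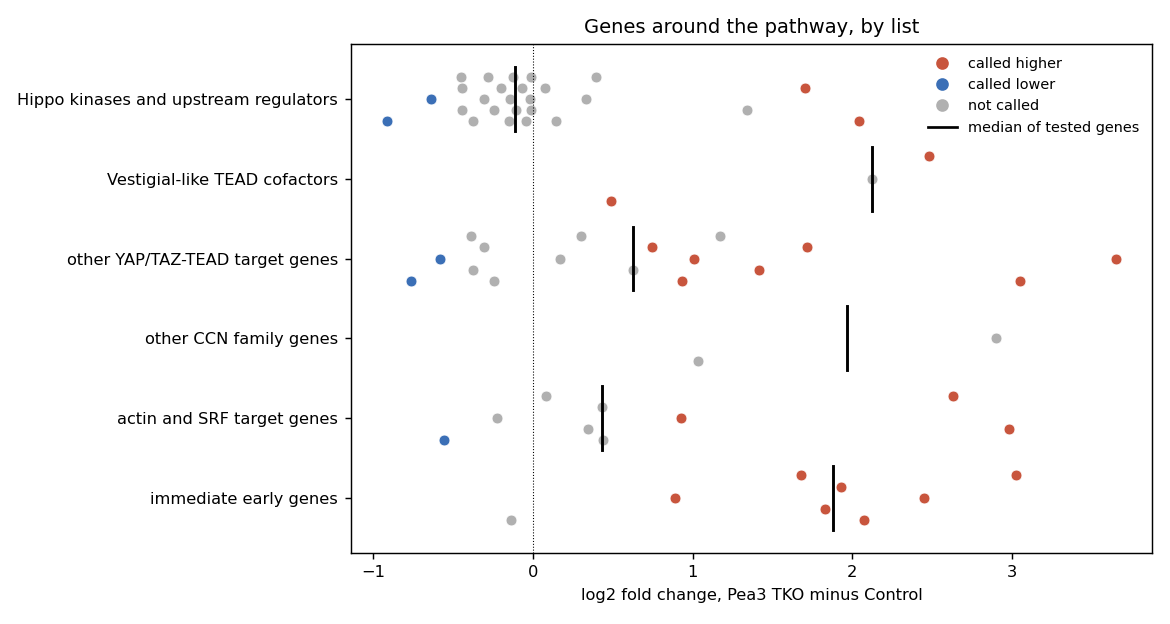
Log2 fold change, Pea3 TKO minus Control (horizontal axis), of every tested gene in 6 lists around the pathway (rows), coloured by call, with the list median as a black line. The 26 kinases and regulators have a median of -0.11 and run from -0.91 (Wwc2) to 2.04 (Taok3), the further targets run from -0.76 (Rbms3) to 3.65 (Nt5e), and 7 of the 8 immediate early genes tested were called higher.

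Library depth was 14194775 to 17860140 counts. The deleted genes were lower in every Pea3 TKO library, with Etv5 at 961 to 1202 CPM in Control and 88.2 to 177 CPM in Pea3 TKO. Etv4 was at 129 to 184 CPM in Control and 10.9 to 28.4 CPM in Pea3 TKO. Etv1 was at 28.7 to 33.9 CPM in Control and 9.21 to 9.98 CPM in Pea3 TKO, the smallest fall of the deleted genes (log2 fold change -1.74). Pea3 TKO 1 and Pea3 TKO 2 expressed Xist (106 and 32.5 CPM) and nearly lacked Y-linked transcripts, whereas Pea3 TKO 3 and all Control libraries carried them at 136 to 175 CPM in sum, so sex differed between libraries and in part between groups. With the Y-linked level as a covariate, Ctgf had a log2 fold change of -2.56 (edgeR adjusted p = 0.00422), and the Tead3 call was lost, as given above. In this fit the genotype difference rests largely on Pea3 TKO 3, the only mutant library with Y-linked transcripts near the Control level. A call lost there is therefore not read as an effect of sex. The part of sex in these differences cannot be told apart fully from that of genotype. Mesenchyme markers summed to 21.9 to 137 CPM in Control and to 421, 587 and 15.4 CPM in Pea3 TKO 1 to 3. Of the 11 tested, 2, Dcn and Lum, were called higher, against 13.6% over all genes tested. Ctgf was at 28.1 to 41.3 CPM in Control and at 11.3, 11.7 and 6.11 CPM in Pea3 TKO 1 to 3. The part of mesenchyme in these Ctgf values was not tested. Surface epithelium markers summed to 551 to 1590 CPM in Control and 5149 to 7329 CPM in Pea3 TKO, with 9 of 10 called higher, against 13.6% over all genes tested. Their part in the Tead3, Ctgf and target list values was not tested. Of the 9 lacrimal and general epithelium markers, 6 were called higher and 2, Sox9 and Sox10, lower. Over all genes tested, 13.6% were called higher and 11.3% lower. The 9 markers summed to 3810 to 4705 CPM in Control and 5829 to 6858 CPM in Pea3 TKO. Endothelial markers summed to 19.2 to 34.6 CPM with Tie1 and Emcn at 0, and skeletal muscle markers to 0.0635 to 4.36 CPM with Myf5 at 0. Immune markers summed to 0.561 to 19.3 CPM and lens markers to 134 to 819 CPM with Crybb2 at 0. Only 2 endothelial, 4 immune and 5 lens markers were tested, and none of them was called. No skeletal muscle marker passed the filter on low counts, so that list was not tested.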

How the data were processed

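Raw counts of reads per gene were deposited by the authors, 1 table for each of 6 libraries. RNA from laser-captured buds was amplified (Ovation RNA-Seq System V2) before library preparation, so reads are not independent molecules, and the limits set by a count of 0 cover counting error only. The submitters' processing notes name bcl2fastq 2.17, STAR 2.5.2b, featureCounts 1.5.0-p3, DESeq and mm10, and the strand setting was not given in the sources used here. Counts were scaled by TMM factors to CPM and tested in edgeR 4.0.16 (R 4.3.3) by the quasi-likelihood F test with group as the only term, on 13087 genes passing filterByExpr (minimum count 10), and the pipeline was tested on simulated data. DESeq2 1.42.0, other factors and filters, the replicate number as a block, a Y-linked covariate and leaving out each library were alternatives. Log2 fold changes with their SE and 95% intervals come from the fit, and CPM per kb used exonic lengths from GENCODE M21. Genes on the other strand overlap 116 bases of Yap1 and 13 bases of Tead2. RefSeq synonyms placed Ctgf and Cyr61. Replicates of a group differed by far more than sampling noise (chi-square per degree of freedom at least 16.0).

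Named genes were all members, up to 4 genes of each pathway list with the smallest p, and the 3 genes most correlated with Yap1 and with Ctgf. Nf2, Sav1 and the other kinases named with a value, and F3, Crim1, Gadd45a, Ccdc80, Asap1, Fos, Atf3 and Zfp36, were added after their values were seen. So were the named markers of mesenchyme and of lacrimal and general epithelium that were called. The members and lists were chosen with earlier results of these data known. Lats2 and Ptpn14 stand in 2 lists each.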

Additional observations from a re-analysis of the deposited data

How the results depend on the processing

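Ctgf kept its direction and call in all 13 alternatives. With the Y-linked covariate, which is partly confounded with group, the number of all genes called fell from 3268 to 865, members called higher from 1 to 0 (Tead3, log2 fold change 0.98, adjusted p = 0.0770), pathway list genes higher from 21 to 10 and lower from 5 to 0, and the log2 fold changes of Wwtr1 (0.011) and Tead2 (0.066) turned positive. DESeq2 called 3966 genes, and among members 2 higher (Amotl2, 0.56) and 2 lower (Tead4, -1.26). Libraries with the same replicate number had correlations of deviations of 0.144, -0.0640 and 0.0454, against a mean of -0.0208 for different numbers. These values showed no clear pairing, but so few libraries cannot exclude it. The replicate block called 3191 genes and 2 members higher (Amotl2, 0.54, edgeR adjusted p = 0.0377). Without normalization factors Tead1 was at 0.0023.

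Leaving out 1 library each gave log2 fold changes of -0.026 to 0.24 for Yap1 (negative without Control 1), -0.51 to 0.21 for Tead1, -1.68 to -1.06 for Tead4, 0.39 to 1.11 for Cyr61 and 0.36 to 0.74 for Amotl2. It gave 1 to 2 members called higher, 1 to 2 called lower, 12 to 23 pathway list genes higher and 2 to 5 lower, and 1948 (without Control 3) to 3344 genes called in all. Of the 26 pathway genes called, 13 kept the call in all 6 of these fits. The ratio of Wwtr1 to Yap1 ran from 1.12 to 1.34 in Control and from 0.981 to 1.10 in Pea3 TKO, and was 0.622 and 0.542 undivided by length and 0.699 and 0.609 by the longest transcript. The other results on members kept their direction and their side of the threshold, and the TEAD shares moved by less than their spread, although the Tead1 difference of -0.0113 percentage points ran from -0.964 to 0.572 without 1 library. The causes of these differences were not tested.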

Other observations

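Immediate early genes, which encode transcription factors and regulators induced within minutes of a stimulus and which include the AP-1 subunits found beside TEAD factors at many enhancers, were mostly higher in Pea3 TKO. Of 9 listed genes 8 were tested, 7 rose and 1 (Ier2) was not called, against 13.6% called higher over all genes tested, with a median log2 fold change of 1.88 against 0.01 over all genes tested. Junb was at 20.2, 13.1 and 12.2 CPM in Control and at 60.6, 62.3 and 68.8 CPM in Pea3 TKO, and Jun at 93.4, 52.5 and 56.8 CPM and at 250, 201 and 269 CPM. Both were higher in every mutant library, with log2 fold changes of 2.07 and 1.83 (edgeR adjusted p = 0.000239 and 0.000536). Egr1, which is also a target of serum response factor, rose by 1.93 and Egr2 by 3.03 on the log2 scale (edgeR adjusted p = 0.000437 and 0.00615). These 4 and Fos kept their calls without any 1 library, whereas Atf3 was lost in 4 of these 6 fits (Control 2, Control 3, Pea3 TKO 1 or Pea3 TKO 2 left out) and Zfp36 in 2 (Control 2 or Control 3). With the Y-linked level as a covariate, Junb, Jun, Egr1 and Egr2 kept their calls. The calls of Fos, Zfp36 and Atf3 were lost there (edgeR adjusted p = 0.0661, 0.0755 and 0.448).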
